A study of Rattus norvegicus with 9 samples.

Results

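The complement components described here are 9 genes: the C1q chains C1qa, C1qb and C1qc, the serine proteases C1s and C2, the central component C3, the alternative pathway proteases Cfb and Cfd, and the anaphylatoxin receptor C5ar1. They were chosen by name, as every non-control probe whose accession is that of one of these rat genes, and they were found on 10 of 30367 probes, with a pair of probes for C2 and a single probe for each other gene. All 9 genes were well above background on all 9 arrays, and they are 9 of the 11047 genes tested. C1qb, C1qc and C1qa are neighbours on chromosome 5, C2 and Cfb on chromosome 20, while C1s (chromosome 4), C5ar1 (chromosome 1), Cfd (chromosome 7) and C3 (chromosome 9) lie apart.

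Total RNA of female rat bladder was hybridised at 3 weeks to 9 single-colour (Cy3) Agilent arrays, 3 titled pBOO + tolterodine, 3 titled pBOO and 3 titled sham. In pBOO, partial bladder outlet obstruction, a thin catheter lay in the urethra while its proximal part was tied. The tolterodine group had the same obstruction plus tolterodine, an antagonist of muscarinic receptors used against overactive bladder, at a dose that the labels do not give, and sham rats were operated on without a ligature. The series asks how ADRB (β-adrenoceptor) signalling acts on matrix deposited by bladder smooth muscle cells, and its work on cultured human cells was not used here.

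The labels conflict on which letter stands for which operation. The treatment protocol gives S to obstruction and C to sham, whereas the sample codes carry C on the arrays titled pBOO and S on those titled sham. The titles were followed, and every group name below means the arrays with that title. With the names pBOO and sham exchanged, every pBOO minus sham value would change sign and the comparisons of tolterodine with pBOO and with sham would trade places. The labels say that 5 specimens a group were examined and do not give whether the RNA on an array came from 1 rat or several; the p-values therefore measure only the spread between arrays. The arrays fall into 3 scans. The first held tolterodine 1 and 2 with sham 2 and 3, the second held the 3 pBOO arrays with sham 1, and tolterodine 3 was scanned alone, so no scan held both tolterodine and pBOO.

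The 75th percentile of the processed signal ran from 523 to 1441 intensity units across arrays, and from 72.1% to 80.1% of spots were well above background. Sham 1 stood apart from its group: it differed by more than 2-fold from sham 2 in 879 and from sham 3 in 598 of 10104 genes, against 122 genes between sham 2 and sham 3. Levels below are log2 processed signals relative to the array's 75th percentile, so that 0 is that percentile, and changes are log2 differences with the standard error (SE) of a limma fit over all 9 arrays. The adjusted p is that of limma with Benjamini-Hochberg adjustment over all 11047 genes, with a threshold of 0.05. In RNA of whole bladder, fewer cells of a type and less RNA per cell cannot be told apart.

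Complement is a cascade of plasma and tissue proteins. C1q binds antibody or altered surfaces and activates the proteases C1r and C1s, which cleave C4 and C2. Factor B and factor D, the products of Cfb and Cfd, form the alternative pathway that amplifies cleavage of C3, and C5a, released further down, acts on leukocytes through its receptor C5ar1. Much circulating complement is made by the liver, while C1q is made largely by macrophages and dendritic cells, C3 and factor B also by epithelia, and factor D by adipocytes, where it is known as adipsin.

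Against pBOO, 8 of the 9 components rose with tolterodine and none fell, where 41.3% of all genes tested passed, 26.0% by rising and 15.3% by falling. The median log2 change over the components was 1.94, beside 0.11 over all genes. Between pBOO and sham, 6 components fell and 1 (C1s) rose, where 42.5% of all genes passed, 21.7% by falling and 20.8% by rising, with medians of -0.85 over the components and -0.04 over all genes. Against sham, 6 components rose with tolterodine and none fell, where 24.4% of all genes passed, 17.8% by rising and 6.58% by falling, with medians of 0.98 and 0.09. The groups did not overlap in 9 components for tolterodine against pBOO (58.7% of all genes), in 7 for pBOO against sham (55.7%) and in 6 for tolterodine against sham (43.1%). The members thus showed 2 main patterns, one for the C1q chains, C2 and C5ar1 with tolterodine above sham, and one for C3 with tolterodine and sham at overlapping levels far above pBOO. C1s, Cfb and Cfd are given on their own. These comparisons share arrays pairwise, so their values are not independent of each other.

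**Figure D1:**
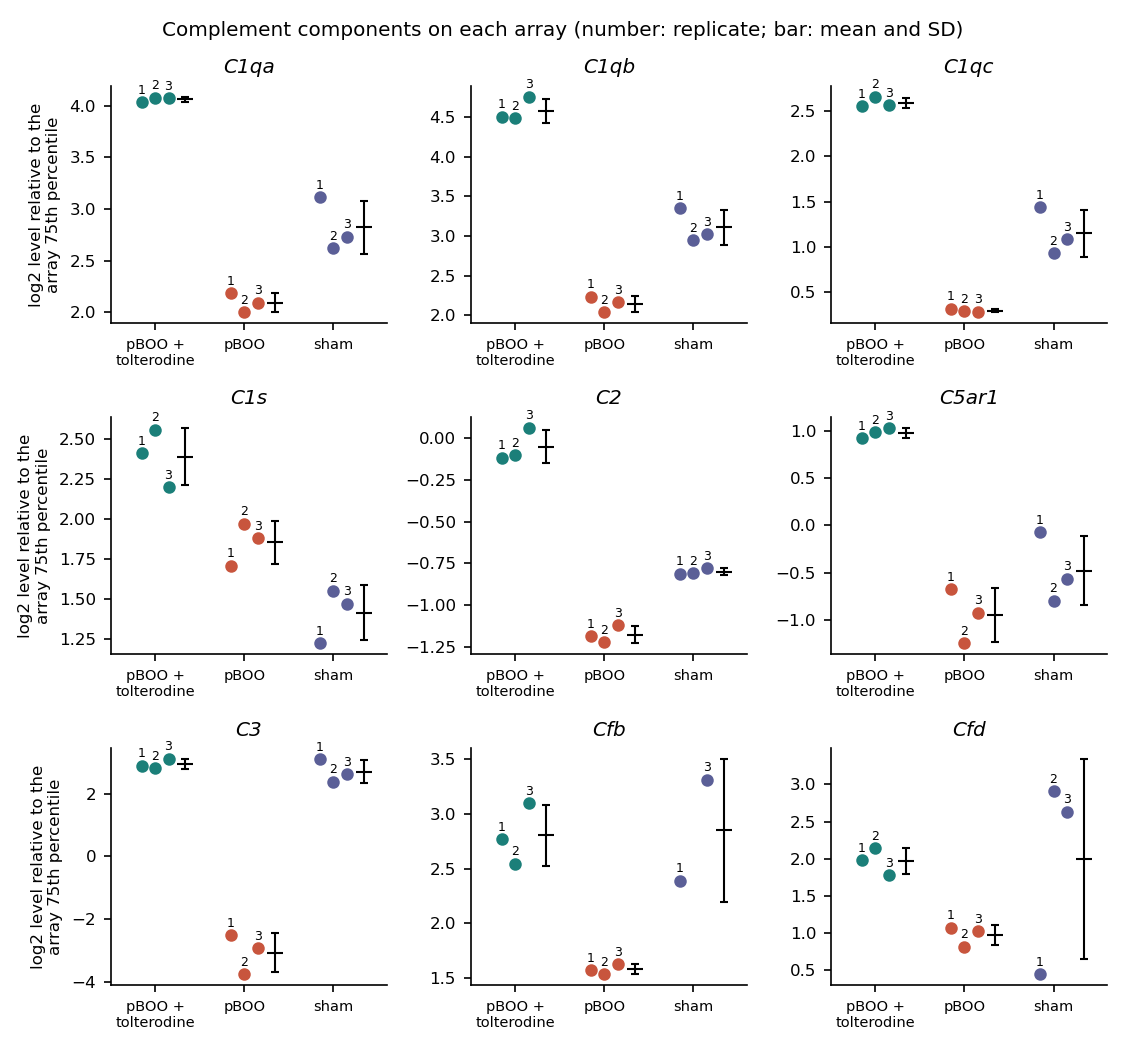
Log2 level of each complement component relative to the array 75th percentile (vertical axis, a separate range for each gene) on the arrays titled pBOO + tolterodine, pBOO and sham. Each numbered point is an array and the bar is the mean with its SD; the C1q chains lie highest with tolterodine and lowest in pBOO, C3 lies near -3 in pBOO alone, and Cfb has 2 sham arrays because the spot of sham 2 carried a quality flag.

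The C1q chains are the recognition subunits of the classical pathway, each C1q molecule being assembled from the A, B and C chains. All 3 chains were highest with tolterodine, intermediate in sham and lowest in pBOO, with no overlap between any pair of groups. C1qa had levels of 4.03, 4.08 and 4.07 with tolterodine, 2.19, 2.00 and 2.09 in pBOO, and 3.11, 2.62 and 2.73 in sham. C1qb had levels of 4.50, 4.48 and 4.75 with tolterodine, 2.23, 2.04 and 2.16 in pBOO, and 3.35, 2.94 and 3.02 in sham. C1qc had levels of 2.55, 2.65 and 2.56 with tolterodine, 0.32, 0.29 and 0.29 in pBOO, and 1.43, 0.93 and 1.09 in sham. The tolterodine arrays and the pBOO arrays each lay close together next to these differences. The sham arrays were more spread, and sham 1 was the highest of them for each chain.

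Against pBOO, tolterodine arrays were higher in C1qb by 2.43 (SE 0.14; adjusted p = 7.22e-06), in C1qc by 2.29 (SE 0.14; adjusted p = 8.05e-06) and in C1qa by 1.97 (SE 0.14; adjusted p = 1.92e-05). These are folds of 5.41, 4.89 and 3.91. In pBOO against sham, C1qb fell by 0.96 (SE 0.14; adjusted p = 0.000898), C1qc by 0.85 (adjusted p = 0.0014) and C1qa by 0.73 (adjusted p = 0.00344), or 1.95-fold, 1.81-fold and 1.66-fold. With tolterodine the chains also lay above sham, by 1.47 for C1qb (adjusted p = 0.000423), 1.44 for C1qc (adjusted p = 0.000407) and 1.24 for C1qa (adjusted p = 0.00079). No scan held both tolterodine and pBOO, so the first of these comparisons has no value within a scan. In the second scan, the log2 change of C1qb in pBOO against sham 1 was -1.21 (adjusted p = 0.0118), and in the first scan the difference between tolterodine and sham was 1.51 (adjusted p = 0.00159).

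Because the chains moved together, the promoters of the 2 chains that the RefSeq table for GRCr8 holds are shown, from 250 bases before to 50 bases after the start of the gene, on the minus strand of chr5:154419884-154420183 for C1qa and chr5:154407778-154408077 for C1qb. Capitals mark matches to 5 short motifs, searched on both strands.
C1qa: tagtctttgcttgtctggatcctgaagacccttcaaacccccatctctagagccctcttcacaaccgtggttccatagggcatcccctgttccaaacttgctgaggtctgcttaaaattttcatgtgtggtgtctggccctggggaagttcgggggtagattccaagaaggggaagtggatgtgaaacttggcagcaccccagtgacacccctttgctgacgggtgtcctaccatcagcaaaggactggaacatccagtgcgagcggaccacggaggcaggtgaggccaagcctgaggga
C1qb: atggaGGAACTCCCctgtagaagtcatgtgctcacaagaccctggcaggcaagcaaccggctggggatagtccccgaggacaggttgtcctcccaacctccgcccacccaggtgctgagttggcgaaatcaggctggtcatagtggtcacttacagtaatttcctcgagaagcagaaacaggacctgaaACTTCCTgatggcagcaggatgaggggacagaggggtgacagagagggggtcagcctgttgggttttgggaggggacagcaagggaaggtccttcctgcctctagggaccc

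The motifs were AGGAAGT (PU.1, a factor of myeloid cells), TGANTCA (AP-1), GGGANTTCC (NF-kB), TTNNGCAA (C/EBP) and GAAANNGAA (IRF). The C1qb window holds a PU.1 match, read ACTTCCT on the gene's strand, from 61 to 55 bases upstream, and an NF-kB match, read GGAACTCCC, from 245 to 237 bases upstream. None of the 5 motifs is in the C1qa window. Of 33469 promoters of this length, 8.41% hold the PU.1 letters, 7.33% AP-1, 1.64% NF-kB, 10.6% C/EBP and 9.71% IRF. These matches describe the sequence only.

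C1s and C2 encode proteases that act after C1q, and their changes lay between -0.38 and 1.13. C1s had levels of 2.41, 2.56 and 2.20 with tolterodine, 1.71, 1.97 and 1.88 in pBOO, and 1.22, 1.55 and 1.47 in sham. It was the only component whose pBOO level was higher than its sham level, and no pair of groups overlapped. C1s rose by 0.54 with tolterodine against pBOO (SE 0.14; adjusted p = 0.0154), by 0.44 in pBOO against sham (SE 0.14; adjusted p = 0.0341) and by 0.98 with tolterodine against sham (SE 0.14; adjusted p = 0.0023). The pBOO against sham call was lost without pBOO 2 (adjusted p = 0.0971), pBOO 3 (0.0987), sham 1 (0.0758) or sham 3 (0.0755), and the tolterodine against pBOO call without tolterodine 1 (0.0508) or tolterodine 2 (0.0542). C1r, the partner protease whose gene is next to C1s, passed the test in none of the comparisons, with means of 1.38 with tolterodine, 1.28 in pBOO and 1.18 in sham.

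C2 had levels of -0.12, -0.10 and 0.06 with tolterodine, -1.19, -1.23 and -1.12 in pBOO, and -0.81, -0.81 and -0.78 in sham. Its order was that of the C1q chains, without overlap. C2 rose by 1.13 with tolterodine against pBOO (SE 0.10; adjusted p = 5.74e-05) and by 0.75 against sham (adjusted p = 0.00158), and it fell by 0.38 in pBOO against sham (adjusted p = 0.0146). Without sham 3 the last of these did not pass (adjusted p = 0.0628). The other C2 probe, not used for the test, gave differences of 1.21, 0.80 and -0.41 for the same comparisons.

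C3 is the protein on which all activation routes converge, and its fragments coat targets and draw in leukocytes. It was the component with the widest range. The level was 2.89, 2.82 and 3.11 with tolterodine, -2.52, -3.76 and -2.93 in pBOO, and 3.09, 2.38 and 2.61 in sham. As processed signal this was 6696, 7604 and 4515 intensity units with tolterodine, 251, 76.0 and 125 in pBOO, and 6430, 4272 and 3596 in sham. All 3 pBOO arrays were low, still well above background, and far from the other 6, while tolterodine and sham overlapped.

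With tolterodine, C3 was 64.6-fold higher than in pBOO, a log2 change of 6.01 (SE 0.30; adjusted p = 3.39e-06). In pBOO it fell by 5.77 against sham (SE 0.30; adjusted p = 8.13e-06), or 54.4-fold. Tolterodine and sham differed by 0.25 (SE 0.30; adjusted p = 0.584), with a 95% confidence interval of -0.44 to 0.94, so differences of either sign within that interval were not resolved. With normexp background correction the first pair of changes was 5.19 and -5.01, and in the second scan the change of pBOO against sham 1 was -6.16 (adjusted p = 0.00733). In the first scan, 2 tolterodine arrays were above 2 sham arrays by 0.36 (adjusted p = 0.0471).

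The C3 promoter of the RefSeq table (GRCr8, minus strand of chr9:2201290-2201589) is shown for comparison with those of C1q, with the match in capitals.
C3: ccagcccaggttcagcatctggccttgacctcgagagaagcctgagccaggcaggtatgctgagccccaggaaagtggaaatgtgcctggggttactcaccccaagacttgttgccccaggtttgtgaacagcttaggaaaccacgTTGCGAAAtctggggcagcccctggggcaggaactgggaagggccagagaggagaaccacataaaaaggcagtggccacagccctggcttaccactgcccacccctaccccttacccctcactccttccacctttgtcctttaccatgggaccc

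It holds a C/EBP match, read TTGCGAAA on the gene's strand, from 104 to 97 bases upstream, and none of the other 4 motifs. The promoter of Cfd, also in the table, holds none of the 5 motifs.

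The change of C3 was set against that of C1qb, the C1q chain with the highest mean level, from the difference of both genes on each array. The C3 change minus the C1qb change was 3.58 for tolterodine against pBOO, -4.80 for pBOO against sham and -1.23 for tolterodine against sham. The C3 level minus the C1qb level ran from -1.66 to -1.61 with tolterodine, from -5.80 to -4.75 in pBOO and from -0.56 to -0.26 in sham, so no pair of groups overlapped. The two-sided exact permutation test over arrays gave p = 0.1 each time, the smallest that 20 splits of 3 against 3 allow, so this test could not pass the threshold whatever the values, and the differences are given as a description. Leaving out any array kept its sign in each comparison.

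**Figure D2:**
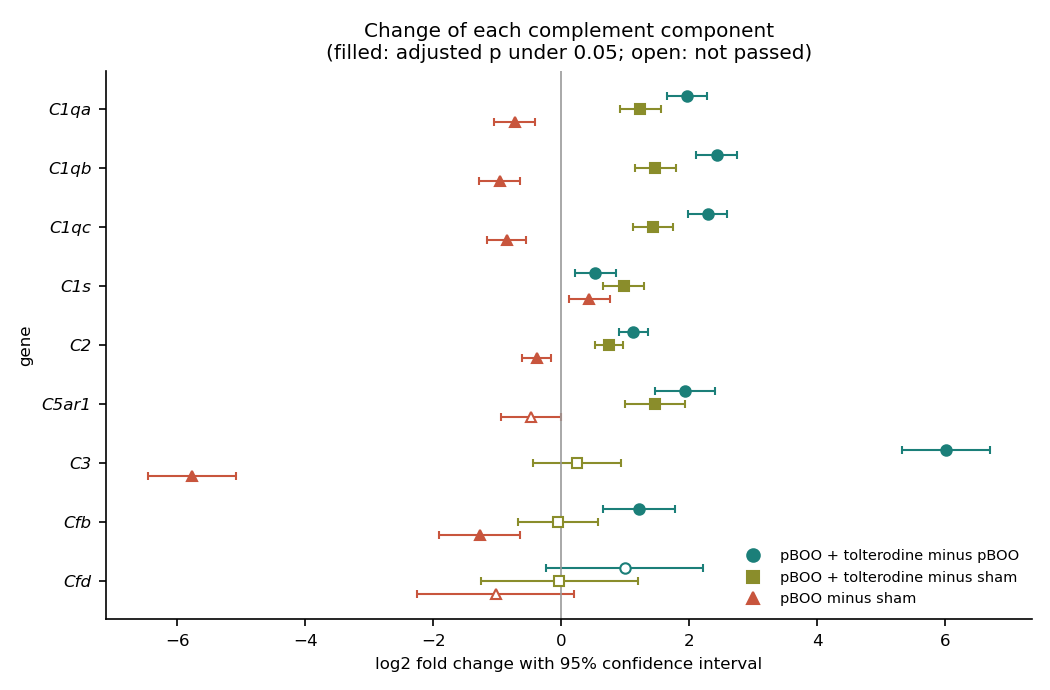
Log2 fold change of each complement component (horizontal axis, point with 95% confidence interval) for pBOO + tolterodine minus pBOO (circles), pBOO + tolterodine minus sham (squares) and pBOO minus sham (triangles). Filled symbols passed an adjusted p of 0.05; C3 spans from -5.77 to 6.01, while its change with tolterodine against sham lies at 0.25 with an interval across 0.

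Cfb encodes factor B, which supplies the catalytic subunit of the alternative pathway C3 convertase. Its level was 2.77, 2.54 and 3.10 with tolterodine, 1.57, 1.54 and 1.63 in pBOO, and 2.39 and 3.31 in sham 1 and sham 3. The sham 2 spot was flagged by the scanner software and left out of the fit. The pBOO arrays were the lowest, and the tolterodine and sham arrays overlapped.

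Cfb rose by 1.22 with tolterodine against pBOO (SE 0.24; adjusted p = 0.00553) and fell by 1.27 in pBOO against sham (SE 0.27; adjusted p = 0.00738, 3 arrays against 2). Between tolterodine and sham it differed by -0.05 (adjusted p = 0.917; 95% confidence interval -0.68 to 0.58). With the flagged spot kept, at a level of 3.49, the pBOO against sham change was -1.48 (adjusted p = 0.00261). In the second scan it was -0.81 against sham 1 (adjusted p = 0.0204). With the scan as a fixed block the tolterodine against pBOO change was 0.15 and did not pass (adjusted p = 0.56). These groups share no scan, so the fit joins them only through sham 1 in the second scan and sham 3 in the first. With that block the tolterodine against sham change was -0.66, which rests on sham 3 as the only sham value in the first scan.

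Cfd, adipsin, cleaves factor B bound to C3b. It had levels of 1.98, 2.14 and 1.78 with tolterodine, 1.08, 0.82 and 1.02 in pBOO, and 0.45, 2.91 and 2.64 in sham. The low value was that of sham 1, below every other array, while sham 2 and sham 3 were the highest of all. Cfd passed the test in no comparison, with a change of 1.00 for tolterodine against pBOO (SE 0.54; adjusted p = 0.17; no overlap), -1.02 for pBOO against sham (SE 0.54; adjusted p = 0.158) and -0.03 for tolterodine against sham (adjusted p = 0.976; 95% confidence interval -1.26 to 1.20).

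The comparisons with sham turn on sham 1. Without it, Cfd changed by -1.80 in pBOO against sham (adjusted p = 0.000115) and by -0.80 with tolterodine against sham (adjusted p = 0.00571). Within the second scan, where sham 1 is the only sham array, pBOO was above sham by 0.53 (adjusted p = 0.0858). Within the first scan, tolterodine differed from sham 2 and 3 by -0.71 (adjusted p = 0.0116). The tolterodine against pBOO change ran from 0.91 to 1.09 with 1 array left out and was -1.24 with the scan as a fixed block. That block joins these groups only through the sham arrays, with sham 1 the only sham array scanned beside pBOO.

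In 2 of the 5 adipocyte markers tested, sham 2 and sham 3 were likewise the highest of all arrays, with sham 1 far below them. Adipoq, which encodes adiponectin, had levels of -2.15, -1.54 and -4.48 with tolterodine, -4.86, -8.13 and -6.47 in pBOO, and -5.08, 2.06 and 1.64 in sham. Retn, which encodes resistin, had -1.55, -0.91 and -4.23 with tolterodine, -4.98, -5.21 and -4.66 in pBOO, and -3.95, 0.99 and 0.53 in sham. Sham 2 and sham 3 were highest and sham 1 was low in all 3 genes, and tolterodine 3 was lower than tolterodine 1 and 2. Of the 11 adipocyte markers listed, 5 were tested, and their mean level ran from -3.84 to -2.35 with tolterodine, from -3.98 to -3.51 in pBOO and from -3.79 to -1.01 in sham. None rose and 2 fell with tolterodine against pBOO, 2 rose and 2 fell in pBOO against sham, and none rose and 1 fell with tolterodine against sham. Over all genes, 26.0% rose and 15.3% fell, 20.8% rose and 21.7% fell, and 17.8% rose and 6.58% fell in that order. Adipoq was well above background on 1 of 3 pBOO arrays and on all others. The other adipocyte markers tested did not have their highest levels in sham 2 and sham 3. Lpl, a lipase of fat and muscle, had -0.42, -0.46 and -0.46 in sham. Car3, a carbonic anhydrase, and Lipe, the hormone-sensitive lipase, both averaged highest in pBOO. Car3 had -4.47, -4.25 and -4.80 with tolterodine, -3.01, -2.16 and -2.52 in pBOO, and -3.96, -2.37 and -2.73 in sham. For both genes sham 1 was the lowest sham array, as for Cfd, with Lipe at -5.52, -5.26 and -5.02 in sham. The part of adipose tissue in the Cfd values was not tested.

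**Figure D3:**
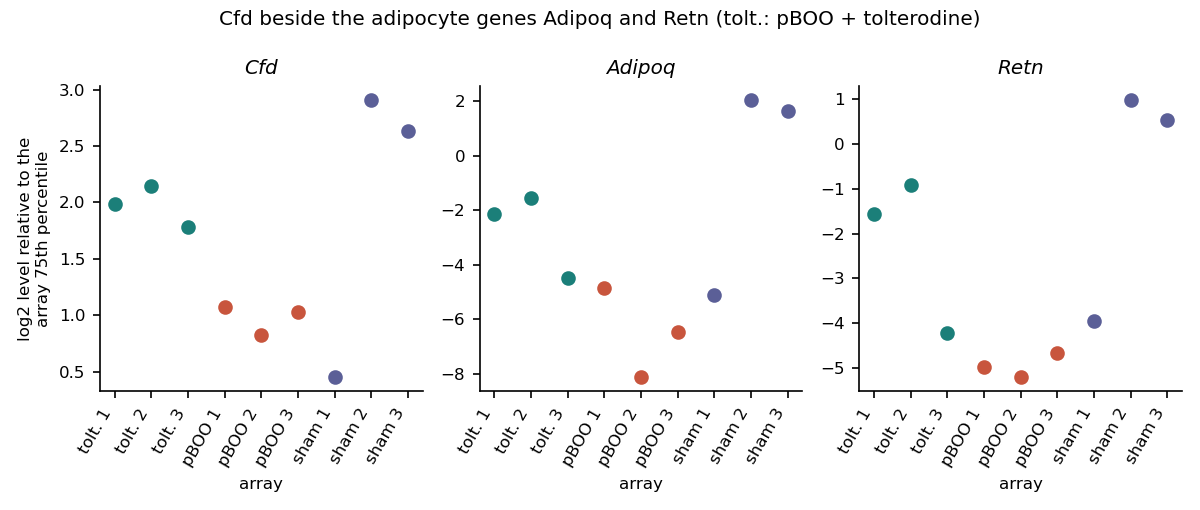
Log2 level of Cfd, Adipoq and Retn relative to the array 75th percentile (vertical axis, a separate range for each gene) on each of the 9 arrays (horizontal axis, tolterodine, pBOO, sham). Sham 1 lies low in all 3 genes (0.45, -5.08 and -3.95) while sham 2 and sham 3 lie highest (2.91, 2.06 and 0.99 in sham 2).

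C5ar1 encodes the receptor for C5a on neutrophils, monocytes and macrophages. Its level was 0.93, 0.99 and 1.03 with tolterodine, -0.68, -1.25 and -0.93 in pBOO, and -0.07, -0.80 and -0.56 in sham. The tolterodine arrays were above all others, and sham and pBOO overlapped. C5ar1 rose by 1.94 with tolterodine against pBOO (SE 0.20; adjusted p = 0.00015) and by 1.46 against sham (SE 0.20; adjusted p = 0.00196). The pBOO against sham change of -0.47 did not pass (SE 0.20; adjusted p = 0.0928), though without sham 2 it was -0.63 and passed (adjusted p = 0.0437). C5ar2, the neighbouring gene for the second C5a receptor, passed the test in no comparison, with means of -4.67 with tolterodine, -4.80 in pBOO and -4.77 in sham.

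Among 10103 other genes with a value on every array, the likeness to C3 and to C1qb was measured as the root mean square difference of levels centred on each gene's mean over the 9 arrays. The genes nearest to C3 were Vnn3 (0.398 log2 units), Tspan1 (0.431), Ubd (0.479), Tmprss4 (0.492) and Duox2 (0.52). They encode a vanin, a tetraspanin, a ubiquitin-like modifier, a membrane serine protease and an oxidase that makes hydrogen peroxide. Ubd averaged 2.31 with tolterodine, -2.82 in pBOO and 2.79 in sham, and Duox2 averaged 2.01, -4.57 and 2.14 in the same order. Vnn3 was well above background on no pBOO array, and was at least 67.1-fold higher with tolterodine than in pBOO and at least 68.3-fold lower in pBOO than in sham. For Tmprss4, also well above background on no pBOO array, these bounds were 10.2-fold and 8.05-fold. Since the 5 were chosen for their likeness to C3 on these arrays, their differences between groups follow from the choice, and the pBOO values of Vnn3 and Tmprss4 used for it were not well above background.

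The genes nearest to C1qb were C1qc (0.118), Fkbp5 (0.132), Tnfaip8l2 (0.151), Parvg (0.162) and Cfp (0.164). Fkbp5 encodes a cochaperone of steroid hormone receptors, Tnfaip8l2 a regulator of immune cell activation, Parvg an actin-linked adaptor of blood cells and Cfp properdin, the stabiliser of the alternative pathway convertase. C1qa ranked 12 and C5ar1 37 of the 10103 genes, while C2 ranked 363, C1s 2346, Cfd 5268 and C3 9960. Cfb has no value on sham 2 and was not ranked. Fkbp5 averaged 1.97 with tolterodine, -0.25 in pBOO and 0.64 in sham. These 5 were likewise chosen for their likeness to C1qb, so that they share its order of groups is no separate result.

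**Figure D4:**
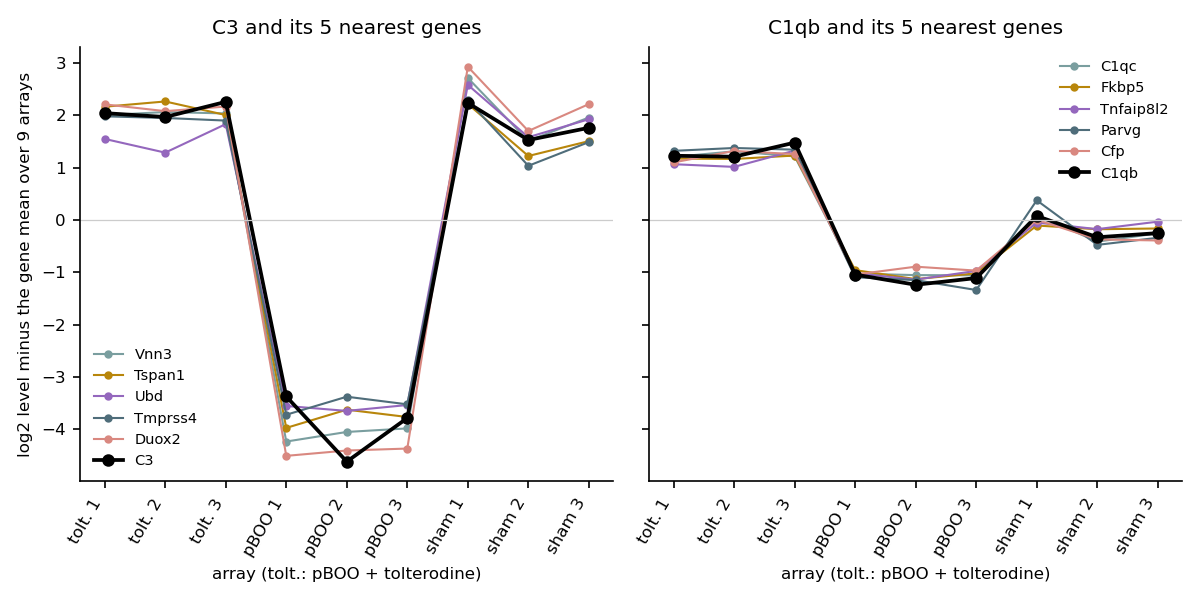
Levels of C3 (left, black) and C1qb (right, black) with the 5 genes nearest to each, as log2 level minus the gene's mean over the 9 arrays (vertical axis) on each array (horizontal axis). The C3 group drops on the 3 pBOO arrays and lies together on tolterodine and sham, while the C1qb group takes 3 levels, highest with tolterodine and lowest in pBOO.

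Macrophage and neutrophil markers moved with the C1q chains. Of 18 macrophage markers tested, 17 rose and none fell with tolterodine against pBOO, none rose and 10 fell in pBOO against sham, and 15 rose and none fell with tolterodine against sham, with medians of 1.78, -0.66 and 0.95. The mean level of the 16 measured on every array ran from 0.22 to 0.28 with tolterodine, from -1.39 to -1.35 in pBOO and from -0.86 to -0.56 in sham, the order of the C1q chains. Tyrobp, Fcer1g and Aif1, the brightest of them, rose by 2.14, 2.26 and 1.88 against pBOO. All 16 were well above background on every array. Of 7 neutrophil markers, all 7 rose with tolterodine against pBOO (median 2.06), 5 fell in pBOO against sham (median -1.66) and 3 rose with tolterodine against sham (median 0.70). As few as 3 of the 7 were well above background on a pBOO array and 5 on a sham array, against all 7 on each tolterodine array. A marker that passed the filter on dim probes only through the tolterodine arrays would rise by that filter. The neutrophil counts and medians are therefore a description and no separate result. Beside both lists, 26.0% of all genes rose with tolterodine against pBOO, 21.7% fell in pBOO against sham and 17.8% rose with tolterodine against sham. S100a8 averaged 1.06 with tolterodine, -3.01 in pBOO and -0.01 in sham. The part of leukocyte number in the C1q and C5ar1 changes was not tested.

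Beside C3, no urothelium marker rose in pBOO against sham, while with tolterodine the list was mixed. Of 19 urothelium markers, 9 rose and 1 fell with tolterodine against pBOO (median 0.49), where 26.0% of all genes rose and 15.3% fell. None rose and 10 fell in pBOO against sham (median -0.77; all genes 20.8% and 21.7%), and 2 rose and 4 fell with tolterodine against sham (median -0.19; all genes 17.8% and 6.58%). The mean level of 11 measured on every array ran from 0.09 to 0.23 with tolterodine, from -0.31 to 0.59 in pBOO and from 0.71 to 0.85 in sham. Tolterodine and pBOO thus overlapped on this list, whereas C3 in pBOO was far from both other groups. With flagged spots left out, Krt15, a basal keratin, averaged 5.68 with tolterodine, 4.35 in pBOO and 5.86 in sham. Cldn4, a claudin, averaged 4.94, 4.35 and 5.13 and was also lowest in pBOO, while Krt18, a keratin of simple epithelium, averaged 4.87, 5.14 and 6.09. The markers that passed all fell in pBOO against sham but went both ways with tolterodine. The name epithelial-type for the C3 pattern was therefore not used. The part of urothelial cell number in the C3 change was not tested.

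Of 8 smooth muscle markers, none rose and 7 fell with tolterodine against pBOO (median -1.79), 7 rose and none fell in pBOO against sham (median 2.52), and 3 rose and none fell with tolterodine against sham (median 0.45). For this and the next lists, the shares of all genes that rose and fell were 26.0% and 15.3%, 20.8% and 21.7%, and 17.8% and 6.58%. Of 9 fibroblast markers, 1 rose and 4 fell with tolterodine against pBOO (median -0.14), 6 rose and none fell in pBOO against sham (median 1.00), and 6 rose and 1 fell with tolterodine against sham (median 0.74). C1s, which fibroblasts also make, rose in all 3 comparisons. Of 8 endothelium markers, 1 rose and 4 fell with tolterodine against pBOO, 5 rose and none fell in pBOO against sham, and 4 rose and none fell with tolterodine against sham. Of 6 lymphocyte markers, 4 rose and none fell with tolterodine against pBOO, none rose and 1 fell in pBOO against sham, and 2 rose and none fell with tolterodine against sham. The 3 mesothelium markers tested passed in no comparison, and sham 1 was the lowest sham array for each. In sham, Wt1 had -5.46, -2.30 and -2.74, Bnc1 -4.43, -2.35 and -2.63, and Gpm6a -7.93, -3.35 and -3.78. The sham 1 value of Gpm6a was not well above background. The part of these cell types in the component values was not tested.

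Beyond the 9 components, 28 of 45 other complement genes listed were tested. With tolterodine against pBOO 12 rose and 2 fell (median 0.29), where 26.0% of all genes rose and 15.3% fell. In pBOO against sham 4 rose and 10 fell (median -0.23), where 20.8% rose and 21.7% fell. With tolterodine against sham 7 rose and 1 fell (median 0.30), where 17.8% rose and 6.58% fell. An excess over all genes was not tested for this list or its parts. For the 5 tested genes of the classical and lectin pathway the counts of rises and falls were 2 and 0, 1 and 1, and 1 and 0. For the 4 of the alternative and terminal pathway they were 2 and 0, 1 and 2, and 1 and 0. The 11 regulators had 4 and 2, 1 and 4, and 2 and 1, and the 8 receptors 4 and 0, 1 and 3, and 3 and 0.

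The regulator with the largest change was Cfi, factor I, the protease that inactivates C3b. Its levels were 0.32, 0.45 and -0.02 with tolterodine, -3.86, -5.40 and -4.44 in pBOO, and -0.44, -1.70 and -1.31 in sham. Cfi rose by 4.81 with tolterodine against pBOO (SE 0.41; adjusted p = 5.12e-05) and by 1.40 against sham (adjusted p = 0.0392), and it fell by 3.41 in pBOO against sham (adjusted p = 0.000345). It was low on the same 3 arrays as C3.

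Vtn and Clu encode vitronectin and clusterin, which hold back the terminal complex. Vtn was high in pBOO only, at -5.79, -5.87 and -5.79 with tolterodine, -1.27, -2.91 and -1.92 in pBOO, and -5.50, -4.84 and -5.43 in sham. It fell by 3.78 with tolterodine against pBOO (adjusted p = 9.07e-05), where it was well above background on 1 of 3 tolterodine arrays, and rose by 3.22 in pBOO against sham (adjusted p = 0.000244). Clu fell by 1.34 with tolterodine against pBOO (adjusted p = 0.0193) and by 1.60 against sham (adjusted p = 0.0164), with means of 2.56 with tolterodine, 3.90 in pBOO and 4.16 in sham. Serping1, the inhibitor of C1r and C1s, passed in no comparison, with means of 3.44, 3.51 and 2.95 over 2, 2 and 3 arrays.

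Cfp, properdin, rose by 2.19 with tolterodine against pBOO (adjusted p = 1e-05) and by 1.48 against sham (adjusted p = 0.000367), and fell by 0.71 in pBOO against sham (adjusted p = 0.00322). C6, a subunit of the membrane attack complex, rose by 1.83 with tolterodine against pBOO (adjusted p = 0.00249) and fell by 1.54 in pBOO against sham (adjusted p = 0.00547). C6 in sham 1 was -1.32, against 0.15 and -0.10 in sham 2 and 3. C9, the pore-forming subunit, was well above background on 2 of 3 pBOO arrays, 1 of 3 tolterodine arrays and no sham array. It was at least 1.16-fold higher in pBOO than in sham (adjusted p = 0.0305). C9 passed the filter on dim probes only through arrays of the obstructed groups, so this rise follows from the filter and is no separate result. It is still counted above among the genes that rose.

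Of the receptors, Vsig4, which binds C3b and is made by tissue macrophages, had levels of -3.58, -3.45 and -3.38 with tolterodine, -5.81, -8.10 and -8.30 in pBOO, and -3.75, -4.64 and -4.65 in sham. It was higher with tolterodine than in pBOO (adjusted p = 0.000974) and lower in pBOO than in sham (adjusted p = 0.00339). No fold is given, because 2 of the 3 pBOO arrays were not well above background. C3ar1, the C3a receptor, was well above background on the 3 tolterodine arrays only. It was at least 2.59-fold higher there than in pBOO and at least 1.95-fold higher than in sham. C3ar1 passed the filter on dim probes only through these arrays, so its rise follows from the filter and is no separate result. It is still counted above among the genes that rose. Itgb2, the common chain of the leukocyte integrins that bind iC3b, rose by 1.63 with tolterodine against pBOO (adjusted p = 4.7e-05) and by 0.89 against sham (adjusted p = 0.00298). Lrp1, a scavenger receptor that acts with calreticulin in the uptake of C1q-bound targets, rose by 0.68 with tolterodine against sham (adjusted p = 0.00614) and by 0.94 in pBOO against sham (adjusted p = 0.000512).

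**Figure D5:**
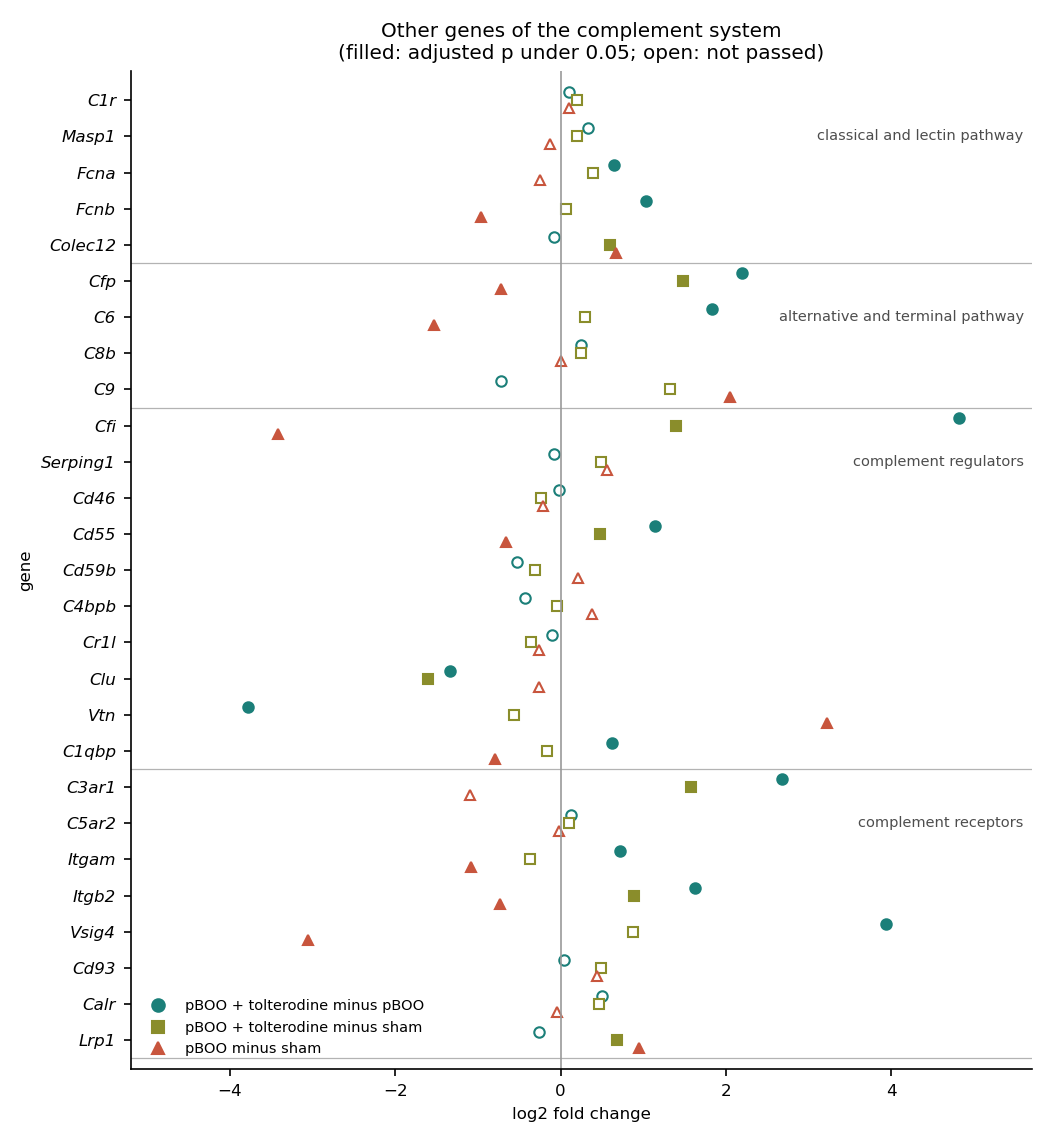
Log2 fold change (horizontal axis) of 27 other complement genes, in 4 groups by role, for pBOO + tolterodine minus pBOO (circles), pBOO + tolterodine minus sham (squares) and pBOO minus sham (triangles); filled symbols passed an adjusted p of 0.05. Cfi lies far to the right with tolterodine against pBOO (4.81) and Vtn far to the left (-3.78); fitted values of C9, C3ar1, Vsig4 and Vtn include arrays not well above background and are not measured folds there.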

How the data were processed

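Bladder RNA was measured on 9 one-colour arrays, 3 in each of 3 groups taken from the titles. The deposited values are spot intensities. Per the file headers they come from Feature Extraction 11.0.1.1, whereas the submitters' processing notes name 9.1, and the processed signal is an intensity corrected for background and not normalized between arrays. The raw signal and local background, used for an alternative, are deposited intensities too, and the quality flags are deposited values of another kind, 0 or 1. Later steps of the authors are not given in the sources used here, and only the scanner values were analysed.

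The log2 processed signal of 42877 non-control spots minus the array's 75th percentile was used. Spots flagged as non-uniform or as population outliers were set to missing, and no spot was saturated. Probes had to be well above background on at least 3 of 9 arrays (22144 of 30367), and 18005 probes had 1 RefSeq (GRCr8) symbol. The probe with the highest mean stood for its gene, with at least 2 unflagged arrays per group, which left 11047 genes. The 3 comparisons came from 1 limma model of all arrays (limma 3.58.1 in R 4.3.3; files were read with data.table version 1.17.8), with two-sided moderated tests (residual degrees of freedom 6, prior 2.78) and Benjamini-Hochberg adjustment over all genes. The fit was tested on simulated data. The median standard error of a log2 change was 0.171, and the number of arrays limits the precision. For a gene well above background on no array of a group, a bound is given in place of a fold: the brighter group's mean was set against the dimmer group's, after raising each dim array to at least the weakest signal still called well above background on it.

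All 9 members are described. Of the other complement genes, those named are up to 6 per comparison with the largest change past the threshold, plus C1r, C4a, C3ar1 and Serping1. A gene of these lists that the rule would name is counted but not reported here. The 3 brightest genes of a cell type list and the 5 genes nearest to C3 and to C1qb could be named; C5ar2, Car3, Lipe and the C2 probe not tested were named after their values were seen. The members and lists were chosen with earlier results of these data known. The promoters come from RefSeq (GRCr8), which had 4 of the 9 members. The alternatives were normexp (offset 50), quantile or median scaling, flagged spots kept, other filters on dim probes, the scan as a block or only arrays of a shared scan, a replicate block, leaving out each array, only the 6 arrays compared, and averaged probes.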

Additional observations from a re-analysis of the deposited data

How the results depend on the processing

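Of 472 component values under the alternatives, 434 kept their direction and their side of the threshold. The C1q chains, and C3 between pBOO and each other group, did so in every setting run. With normexp the counts of all genes past the threshold were 3000 (tolterodine minus pBOO), 3026 (pBOO minus sham; 1179 higher and 1847 lower, against 2295 and 2400) and 961 (tolterodine minus sham; 656 and 305, against 1968 and 727), and the median of all genes for pBOO minus sham was -0.14. The tolterodine minus sham count was 4484 with the scan as a fixed block, 4276 as a random block and 5717 within a shared scan, where the pBOO minus sham count was 2912. Leaving out 1 array gave 3374 to 4563 genes (tolterodine minus pBOO), 3356 to 5054 (pBOO minus sham) and 1385 to 3743 (tolterodine minus sham), the last at 1518 without tolterodine 1, 1456 without tolterodine 2, 1606 without sham 2 and 1385 without sham 3. It gave 7 to 8, 4 to 8 and 6 to 7 components in the same order; the 4 are without sham 3, where Cfb could not be tested. Cfd changed sign for pBOO minus sham with the scan as a fixed block or within the second scan (0.53 each) and as a random block (0.0035), and for tolterodine minus pBOO with the scan as a fixed (-1.24) or random (-0.39) block. Its near-zero tolterodine minus sham value became 0.071 with quantile scaling and ranged from -0.80 to 0.43 with 1 array left out (0.064 without tolterodine 3, 0.43 without sham 2, 0.29 without sham 3). That of Cfb became 0.060 with quantile scaling and 0.028 with the replicate block, and ranged from -0.19 to 0.082 with 1 array left out. It was -0.66 with the scan as a fixed block, where sham 3 was the only sham value of Cfb in the first scan. C1s also lost its tolterodine minus pBOO call with quantile scaling (0.38) and with the scan as a fixed (0.34) or random (0.39) block, and its pBOO minus sham call with no filter on dim probes (adjusted p = 0.0549) and within the scan (0.0584). C2 lost its pBOO minus sham call with normexp (adjusted p = 0.0555) and within the scan (0.106), and C5ar1 gained it with the scan as a fixed (-0.88) or random (-0.74) block. Cfb lost its tolterodine minus pBOO call with the scan as a random block (0.69), and Cfd gained it over the 6 arrays compared (adjusted p = 0.00155). The cause of these changes was not tested. Deviations from the group means had r from -0.08 to 0.18 between arrays with the same replicate number and from -0.18 to 0.16 between others. No pairing by number was seen, though 3 arrays a group cannot exclude it. The replicate block gave 4225, 4349 and 2331 genes and 8, 7 and 6 components past the threshold, and no component's call changed.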

Other observations

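C4a, the component that C1s cleaves beside C2, was not tested because its spots on sham 2 and sham 3 carried quality flags. With flagged spots kept its log2 level was 3.32, 3.12 and 3.68 with tolterodine, 3.59, 3.47 and 3.42 in pBOO, and 2.57, 3.79 and 3.57 in sham. Sham 1, the only unflagged sham array, was the lowest of all 9 arrays.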
